A study of Homo sapiens with 26 samples.

Results

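A set of 8 genes of polyamine metabolism, several of them known for control during translation, was examined in ribosome profiling data of Huh7 cells treated with PF-06446846. The members were the 8 transcripts that a gene annotation (GENCODE) names OAZ1, OAZ2, AZIN1, ODC1, AMD1, SRM, SMS and SAT1, of 12325 transcripts in all, and each had reads in all 26 libraries. Huh7 cells come from a human hepatocellular carcinoma, and PF-06446846 is a small molecule that stalls ribosomes on a limited set of nascent chains. In the first study, cells received the compound at 1.5 or 0.3 μM, or the DMSO vehicle alone, for 10 or 60 min, with 3 ribo-seq libraries in each of the 6 groups. The second study compared 1.5 μM with vehicle after 60 min in 2 ribo-seq and 2 mRNA-seq libraries per group. All groups are cultures of this 1 cell line. In the vehicle mRNA-seq libraries, the 7 hepatocyte markers found in the files, of 8 fixed for the check, lay between the 85.1th and the 99.2th percentile of RPKM, while PECAM1, the 1 of 5 markers of other cell types in the files, was at the 22.4th.

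Polyamines (putrescine, spermidine and spermine) are small cations that bind nucleic acids and ribosomes and are needed for growth. ODC1 makes putrescine, AMD1 provides the aminopropyl donor, SRM and SMS use that donor to make spermidine and spermine, and SAT1 acetylates both for export or breakdown. Antizymes (OAZ1, OAZ2) bind ODC1 and direct it to the proteasome, and AZIN1, a catalytically inactive relative of ODC1, binds antizyme in its place. Full antizyme is made only when the ribosome shifts by a base at the stop codon of a short first reading frame, which high polyamine levels favour. Small upstream reading frames in the leaders of AMD1, ODC1 and AZIN1 are likewise known to respond to polyamines. The files cover coding sequences only, so those upstream reading frames were not analysed here.

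The frameshift site is where the first frame of OAZ1 ends, and it is shown first because the profile along this gene turns on it. On GRCh38, the stretch below lies at chr19:2271428-2271457 (plus strand) in an exon of OAZ1, and the OAZ2 stretch at chr15:64691501-64691530 (minus strand). Capitals mark the last sense codon of the first frame and its stop codon. The second line is the same OAZ1 stretch as the annotated coding sequence (CDS) joins it, with 1 base, at position 2271443, left out so that the reading frame continues.
OAZ1, genome: cctcggtggtgcTCCTGAtgcccctcaccc
OAZ1, annotated CDS: cctcggtggtgcTCCGAtgcccctcaccc
OAZ2, genome: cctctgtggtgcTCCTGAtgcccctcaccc

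In OAZ1, 68 codons precede the shift and 160 follow it. The OAZ2 transcript used in the files has only 61 codons including the stop, all 183 bases of which lie, in the same frame, at the end of a 190-codon OAZ2 CDS that shifts after codon 32. The first shared codon is codon 130 of that CDS, so the OAZ2 frameshift site is outside the region counted and only its end was measured.

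Footprints on OAZ1 were concentrated near the start of the CDS, whereas mRNA fragments were not. Codons 14 to 19 held between 37.9% and 59% of all OAZ1 footprints over the 22 ribo-seq libraries (median 47.9%), against 2.39% to 3.11% of the reads in the 4 mRNA-seq libraries. This window was chosen after the profile was seen. Codons 12 to 21, at chr19:2269632-2269661, are shown with those of the window in capitals.
OAZ1, codons 12 to 21: agccacTGCTTCGCCAGAGAGAAGgaaggg
The 3 codons of most reads were codon 17 (AGA), codon 16 (GCC) and codon 18 (GAG). Codon 17 held 28.5 times the mean density of the CDS in the first study and 31.5 times in the second, against 0.966 times in mRNA-seq. Codon 16 stood at 21.2, 29.9 and 1.18 times in the same order. Codon 18 stood at 23.1 times in the first study but 7.90 times in the second, where the 4 libraries ranged from 6.03 to 9.65 and the 18 of the first study from 14.6 to 31.9. In vehicle after 60 min in the first study, the 6 adjacent codons with most reads held a median of 5.93% of the reads of a transcript over 8093 transcripts with at least 200 reads, and 9 of these exceeded the 53.1% of OAZ1. Vehicle of the second study had 14 of 7636 transcripts above its 46.8%.

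**Figure D1:**
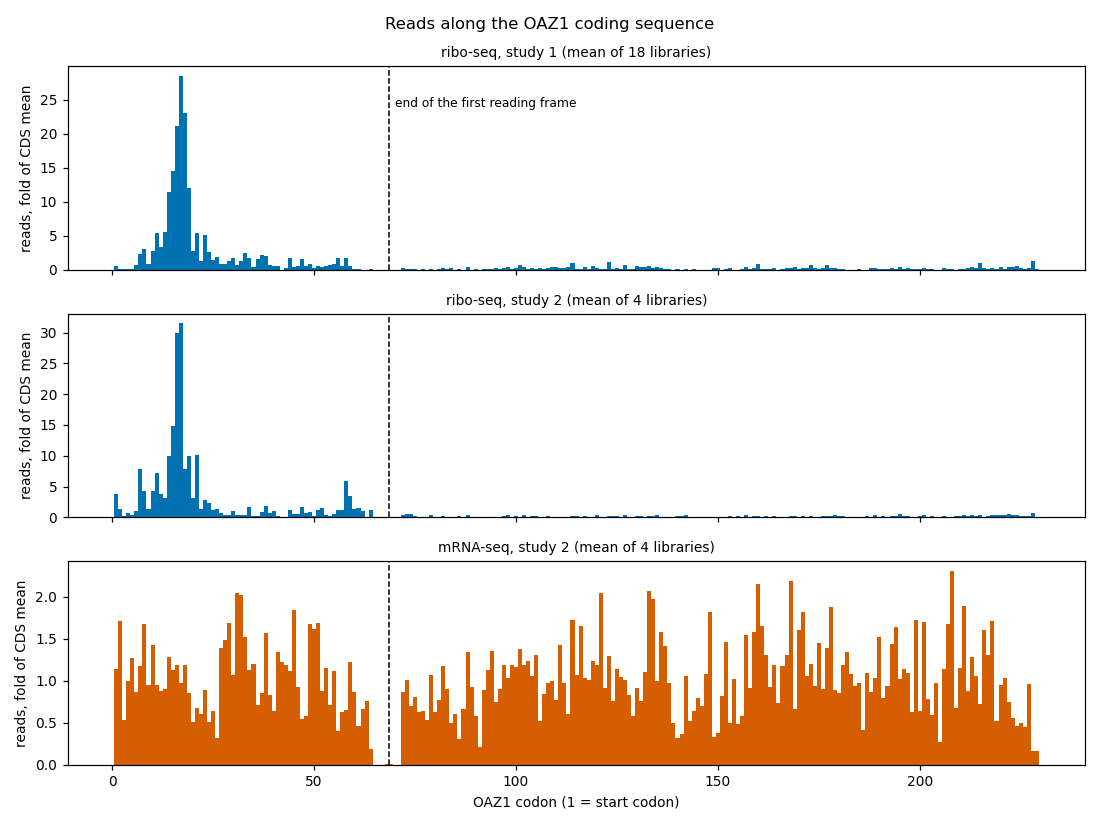
Reads at each codon of OAZ1 as a multiple of the mean over its CDS, averaged over the 18 ribo-seq libraries of the first study, the 4 of the second and the 4 mRNA-seq libraries; each panel has its own linear axis and the dashed line marks the end of the first reading frame after codon 68. Footprints heap on codons 14 to 19 and are sparse after the line, while mRNA fragments cover both sides, with a gap at codons 65 to 71 in both assays.

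Ribosome density after the frameshift site was a small part of that before it in every ribo-seq library. The first 5 and last 5 codons and 10 codons on each side of the site were left out, so codons 6 to 58 were compared with codons 79 to 224. The mean reads per codon after the site were 3.95% to 12.4% of those before it over the 22 ribo-seq libraries (median 6.13%), and 90.8% to 103% in the 4 mRNA-seq libraries. Codons 14 to 19 are among those before the site and lower this percentage. Without them it was 7.42% to 23.3% in ribo-seq (median 14.1%) and 88.6% to 104% in mRNA-seq. In the vehicle libraries of the second study the values were 4.43% and 3.95% in ribo-seq and 100% and 90.8% in mRNA-seq, with no overlap. The log2 ratio differed by -4.51 between these assays, and with 2 libraries against 2 the exact permutation test cannot give less than p = 0.33, which is the value it gave. Without codons 14 to 19, an alternative added after the data were seen, the difference was -3.50 (exact permutation p = 0.33). For scale, the same codon ranges gave a median of 152% over 8093 transcripts in vehicle after 60 min, and 9 of them were below the 6.97% of OAZ1 pooled over replicates.

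The site itself could not be read at codon resolution. Codons 65 to 71 held 8 of 41387 OAZ1 reads over all ribo-seq libraries and 2 of 79624 over all mRNA-seq libraries. A read across the site carries 1 base that the annotated CDS above lacks. The gap was present in mRNA-seq as well, and its cause was not tested. A smaller peak lay at codons 58 and 59, 10 codons before the end of the first frame. Codons 54 to 63, at chr19:2271398-2271427, are shown with those of the peak in capitals.
OAZ1, codons 54 to 63: ctccactgctgtAGTAACccgggtccgggg
Its density was 3.35 to 5.46 times the mean of codons 20 to 57 in the 4 ribo-seq libraries of the second study, 0.229 to 2.34 times in the 18 of the first, and 0.607 to 1.28 times in mRNA-seq. All 4 libraries of the second study thus lay above all others, but these codons were chosen after the values were seen. How many other codons differ in this way was not counted, and study and library preparation cannot be told apart.

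With 1.5 μM PF-06446846, no test called a difference in the share of OAZ1 density after the site. After 10 min the values were 6.22%, 7.54% and 9.09% with 1.5 μM and 5.53%, 4.66% and 5.05% with vehicle, so all treated libraries were above all controls. The log2 difference was 0.57 (mean -3.73 ± 0.27 against -4.30 ± 0.12, SD, n = 3), at exact permutation p = 0.1, two-sided, the smallest that 3 against 3 allow. With codons 14 to 19 left out it was 0.36 (exact permutation p = 0.3) and the groups overlapped. These codons held 41.2%, 42.6% and 40.2% of the OAZ1 reads with 1.5 μM and 48.2%, 45.2% and 53.2% with vehicle after 10 min. After 60 min the density after the site was 7.18%, 12.4% and 9.0% with 1.5 μM and 5.64%, 8.66% and 6.09% with vehicle. These groups overlapped (log2 difference 0.48, exact permutation p = 0.2, n = 3), although the value was higher with the compound in each of the 3 same-numbered pairs (replicate block, exact permutation p = 0.25, the smallest that 3 pairs allow). Leaving out 1 library gave differences from 0.27 (without 1.5 μM replicate 2) to 0.67 (without vehicle replicate 2), and leaving out codons 14 to 19 gave 0.18 (exact permutation p = 0.5). In the second study it was 4.92% and 4.97% against 4.43% and 3.95%, also without overlap. The log2 difference was 0.24 (exact permutation p = 0.33, the smallest possible with n = 2), and 0.16 without vehicle replicate 5. Leaving out codons 14 to 19 gave 0.23 there, with the groups still apart. With 0.3 μM the 3 libraries ranged from 5.00% to 6.98% after 10 min and from 4.56% to 7.39% after 60 min.

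**Figure D2:**
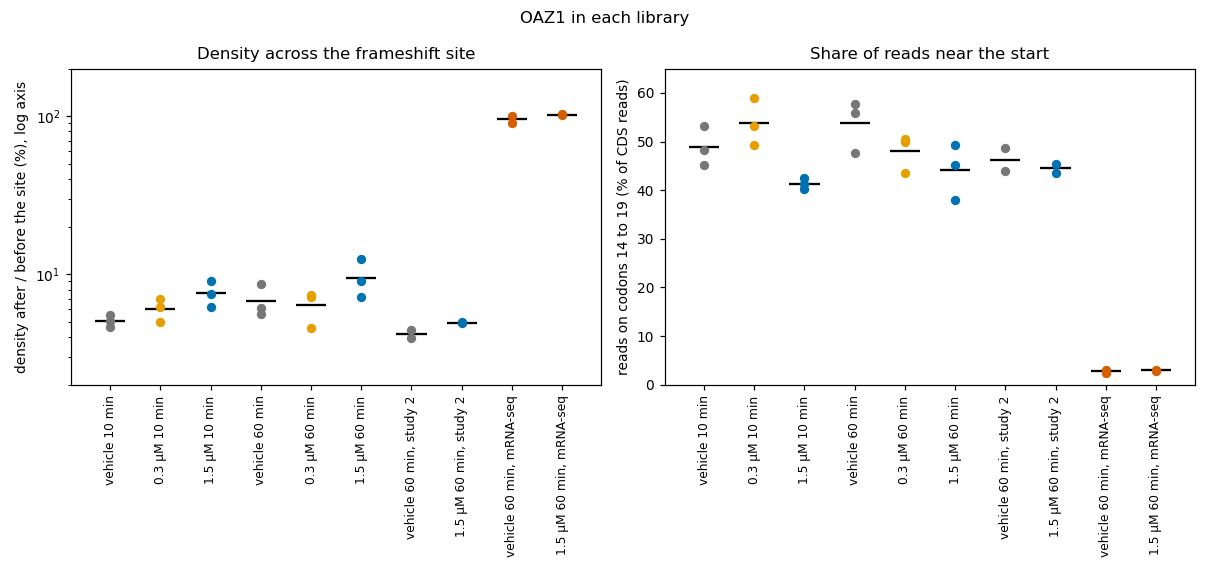
OAZ1 in each library: left, mean reads per codon after the frameshift site as a percentage of those before it (log axis); right, percentage of CDS reads on codons 14 to 19. Points are libraries (grey vehicle, orange-yellow 0.3 μM, blue 1.5 μM, red-orange mRNA-seq), bars are group means, and the mRNA-seq libraries stand apart from all ribo-seq libraries in both panels.

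The members differed widely in footprint level. To compare genes, normalised counts scaled by library size (CPM) were divided by CDS length (RPKM). For OAZ2 this covers only the counted end of its CDS, after the frameshift site. In vehicle after 60 min in the first study (mean ± SD, n = 3), OAZ1 stood at 206 ± 37.8 RPKM, SRM at 204 ± 13.2 and ODC1 at 182 ± 24.9. These first 3 differed by less than their spread. SAT1 (113 ± 19.1) and SMS (100 ± 12.6) were also within their spread of each other, as were AZIN1 (44.3 ± 6.06), OAZ2 (41.4 ± 9.84) and AMD1 (37.6 ± 3.65). In the second study, vehicle footprints (n = 2) stood at 337 ± 2.12 RPKM for OAZ1, 151 ± 7.04 for ODC1, 143 ± 5.32 for SRM, 113 ± 14.1 for SMS, 73.9 ± 1.82 for SAT1, 48.3 ± 1.38 for OAZ2, 39.97 ± 8.22 for AZIN1 and 33.8 ± 3.54 for AMD1. There ODC1 and SRM, OAZ2 and AZIN1, and AZIN1 and AMD1 were less than their summed SDs apart. The matched mRNA-seq vehicle libraries had the same order except for SMS, with OAZ1 at 1635 ± 53.1 RPKM (n = 2), ODC1 at 514 ± 31.4, SRM at 437 ± 46.5, SAT1 at 312 ± 23.8, OAZ2 at 172 ± 20.1, SMS at 98.5 ± 6.83, AZIN1 at 61.6 ± 5.19 and AMD1 at 44.4 ± 2.5. ODC1 and SRM were the only neighbours in mRNA-seq less than their summed SDs apart. The footprint CPM of OAZ1 did not overlap between the studies, being 231 to 244 in the 4 libraries of the second and 105 to 183 in the 18 of the first. The share of all transcripts apart in this way was not counted, and study and library preparation cannot be told apart.

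**Figure D3:**
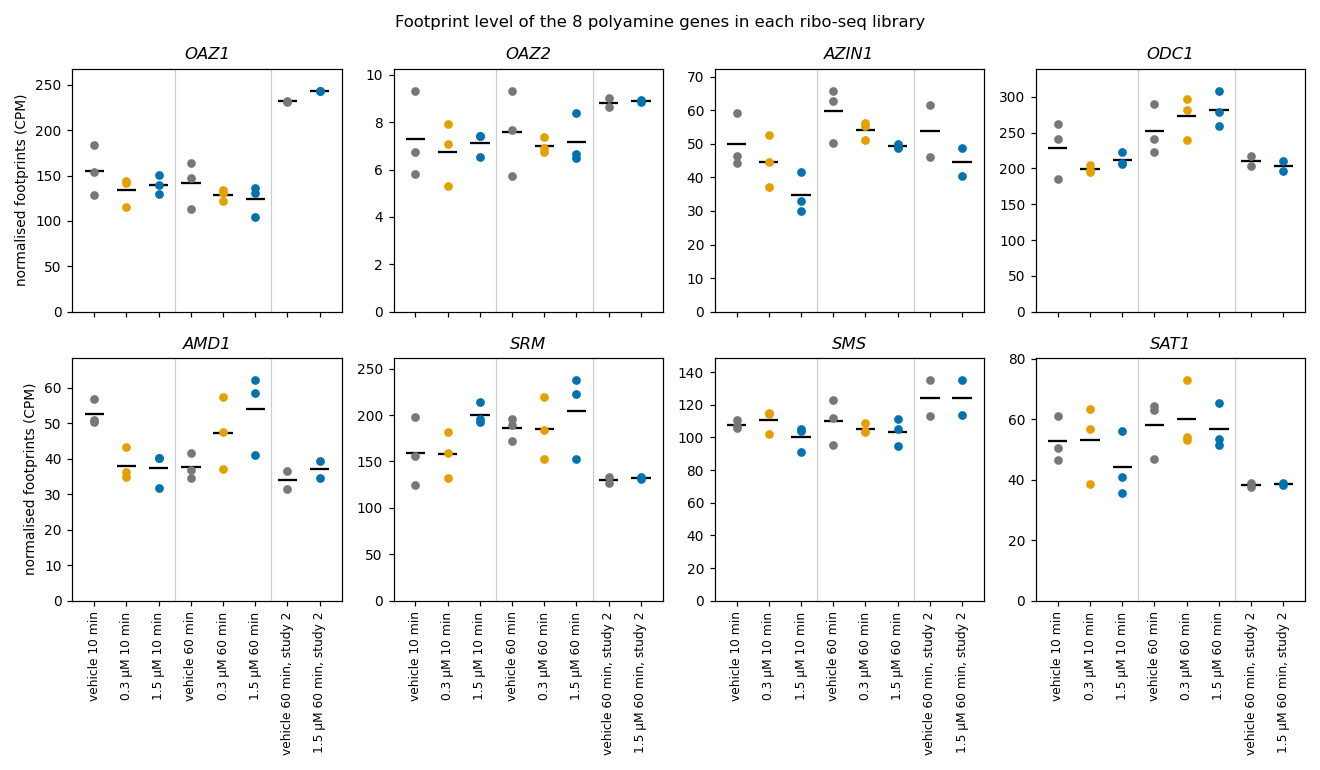
Normalised footprints (CPM, linear axes from 0) of the 8 genes in the 22 ribo-seq libraries; points are libraries coloured by treatment (grey vehicle, orange 0.3 μM, blue 1.5 μM) and bars are group means. In the first study, AMD1 in vehicle lies between 50.4 and 56.8 after 10 min and between 34.6 and 41.8 after 60 min, and AZIN1 with 1.5 μM lies below vehicle at both times.

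The translation efficiency (TE), here the ratio of normalised footprint CPM to normalised mRNA CPM, was low for 5 of the 8 genes. In the 2 vehicle library pairs of the second study, the log2 TE of OAZ1 was -2.32 and -2.24, and 316 of 9278 transcripts with at least 50 reads in each library had a lower mean. The acetyltransferase gene SAT1 stood at -2.18 and -1.97, OAZ2 at -1.68 and -1.98, ODC1 at -1.87 and -1.65 and SRM at -1.46 and -1.76. All 5 were below the 10th percentile, against a median over transcripts of -0.07. AZIN1 (-0.51 and -0.76) and AMD1 (-0.35 and -0.45) lay between the 29th and the 38th percentile, and SMS (0.25 and 0.14) was above the median. With 1.5 μM PF-06446846 the TE of OAZ1 was -2.09 in one library and -2.08 in the other, and that of AZIN1 was -0.92 and -1.11. The change in TE was 0.19 for OAZ1 (SE 0.10, unadjusted p = 0.0738) and -0.40 for AZIN1 (SE 0.20, unadjusted p = 0.0686) in edgeR, with an adjusted p of 1.00 for both. Counting only codons after 50 gave 0.42 for OAZ1, and leaving out 1 ribo-seq library gave -0.16 (without vehicle replicate 4) to -0.59 (without vehicle replicate 5) for AZIN1. No member was called for TE, where 0.0339% of 11799 transcripts were, nor was any at an unadjusted p under 0.05 (background 3.03%) or by DESeq2 (background 0.0909%). These fits did not pair the 2 assays, although the paper prepared both from the same sample. With the culture as a block, which pairs them, edgeR called no member either (background 0.11%). Since TE divides by the whole CDS, the OAZ1 value mixes density before and after the site. The OAZ2 value covers only the end of its CDS, after its frameshift site, and rests on 128 and 79 vehicle footprints. It therefore does not describe translation before that site.

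AMD1 and AZIN1 had the lowest fold changes of the 8 genes after 10 min of 1.5 μM PF-06446846. AZIN1 footprints were 33.1, 29.9 and 41.7 CPM with 1.5 μM and 46.4, 44.3 and 59.1 with vehicle. AMD1 footprints were 40.1, 31.6 and 40.1 CPM against 51.0, 50.4 and 56.8. In both genes all treated libraries were below all controls. The log2 fold change was -0.51 for AZIN1 (SE 0.15, adjusted p = 0.140) and -0.50 for AMD1 (SE 0.12, adjusted p = 0.120) in edgeR. SRM, the spermidine synthase gene, was at 0.34 (SE 0.14, adjusted p = 0.252), with 214, 192 and 196 CPM against 156, 124 and 198, which overlapped, and at 0.18 without vehicle replicate 2 and 0.52 without vehicle replicate 3. None of the 8 members therefore passed the FDR of 0.1 in edgeR's quasi-likelihood test (p-values adjusted by Benjamini and Hochberg), which called 0.851% of 11045 transcripts. Of the 8, 3 were under an unadjusted p of 0.05, beside 17.7% of all transcripts. By DESeq2, AMD1 (adjusted p = 0.0312) and AZIN1 (adjusted p = 0.0591) passed the FDR, beside 5.77% of 9002 transcripts. Leaving out vehicle replicate 3 called 2 members, AMD1 and SRM, by edgeR, beside 14.9% of 11130 transcripts. Blocking on the replicate number called 3, AZIN1, AMD1 and SRM, beside 10.4% of 11149 transcripts. SMS was the other member whose groups did not overlap after 10 min, with 91.2, 104 and 105 CPM against 106, 107 and 111, where 23.3% of 9614 transcripts with at least 50 reads had groups apart. Its log2 fold change was -0.10 (SE 0.10), and those of ODC1 (-0.11), OAZ1 (-0.15), OAZ2 (-0.01) and SAT1 (-0.24) were also within 2 SE of 0. The members' median was -0.13, beside 0.01 over all transcripts tested.

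AMD1 took the opposite direction after 60 min. Its footprints were 62.2, 41.1 and 58.4 CPM with 1.5 μM and 41.8, 34.6 and 36.9 with vehicle, higher with compound in each of the 3 same-numbered pairs although the groups overlapped by 1 library. The log2 fold change was 0.53 (SE 0.17, unadjusted p = 0.00765, adjusted p = 1.00) in edgeR. The replicate numbers pair these libraries, and with the replicate number as a block AMD1 passed the FDR (log2 fold change 0.50, SE 0.11, adjusted p = 0.0713), where 0.458% of 11136 transcripts were called. Without the block, no member was called, beside 0.0726% of 11021 transcripts, and 1 was under an unadjusted p of 0.05 (background 2.2%). DESeq2 called no member (background 0.147%). In the second study AMD1 footprints were 39.4 and 34.7 CPM with 1.5 μM and 36.5 and 31.4 with vehicle (log2 fold change 0.12, SE 0.11), and AMD1 mRNA stood at 49.4 and 51.1 CPM against 46.4 and 42.9 (log2 fold change 0.17, SE 0.12).

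The vehicle libraries moved with these differences. AMD1 stood at 51.0, 50.4 and 56.8 CPM in vehicle after 10 min and at 41.8, 34.6 and 36.9 after 60 min, below all 10 min libraries as in 6.36% of 9656 transcripts (log2 fold change -0.49, SE 0.12, adjusted p = 0.710 in edgeR). With 1.5 μM it was 40.1, 31.6 and 40.1 after 10 min and 62.2, 41.1 and 58.4 after 60 min, above all 10 min libraries as in 5.36% of 9572 transcripts (log2 fold change 0.55, SE 0.16, adjusted p = 0.952). The difference of the compound's effect between the times was 1.02 on the log2 scale (SE 0.21, unadjusted p = 0.000199), yet its adjusted p over 11167 transcripts was 0.856. No transcript was called by edgeR in that comparison (0.0%), and none by DESeq2, where AMD1 had an adjusted p of 0.102. At unadjusted p under 0.05, 1 member and 4.53% of all transcripts were counted. The 0.3 μM libraries held 43.2, 34.7 and 36.2 CPM after 10 min, all below vehicle as in 2.57% of 9818 transcripts (log2 fold change -0.46, SE 0.13, adjusted p = 1.00), and 57.3, 37.1 and 47.5 after 60 min (log2 fold change 0.33, SE 0.16, and 0.17 without 0.3 μM replicate 1). These comparisons share vehicle libraries, so they are not independent.

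**Figure D4:**
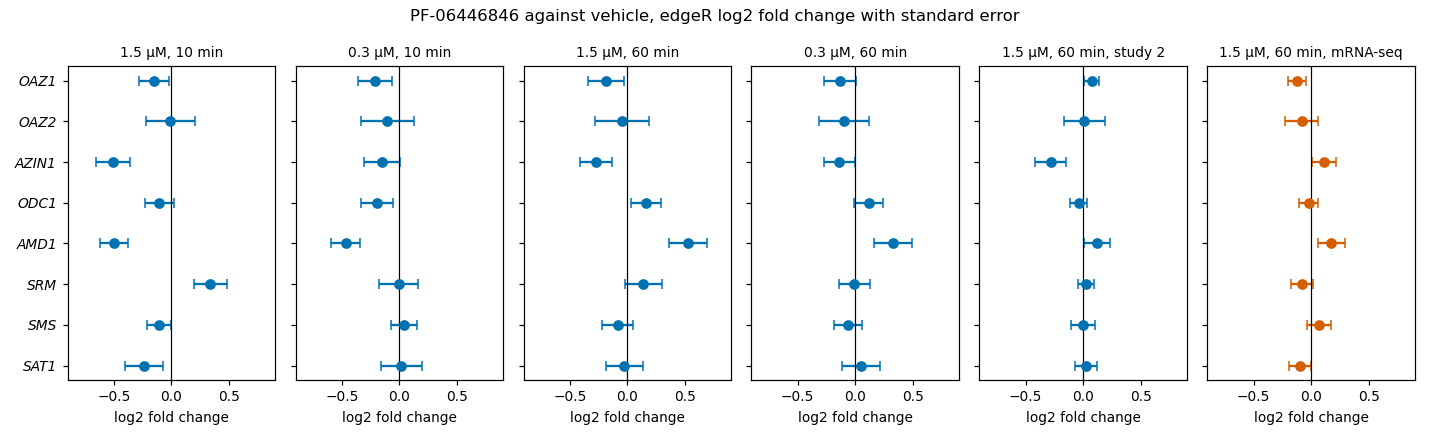
Log2 fold change against vehicle for the 8 genes in 6 comparisons, from edgeR; points are estimates and bars 1 standard error. AMD1 lies below 0 at both doses after 10 min and above 0 at both after 60 min, while the mRNA-seq estimates lie between -0.12 and 0.17.

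With 1.5 μM after 60 min, OAZ1, AZIN1 and SMS were below vehicle in each same-numbered pair, and ODC1 and AMD1 were above it. The share of all transcripts with 1 direction in each pair was not counted. AZIN1 was below vehicle in each such pair in all 3 comparisons, though the replicate numbers were counted as pairing the libraries only after 60 min in the first study. After 60 min it stood at 49.1, 49.9 and 48.8 CPM with 1.5 μM and at 62.7, 50.4 and 65.9 with vehicle, so all treated libraries were below all controls by a margin of under 1 CPM (log2 fold change -0.27, SE 0.14, unadjusted p = 0.0700, adjusted p = 1.00 in edgeR). Groups were apart for 6.48% of 9623 transcripts in that comparison. In the second study it stood at 48.7 and 40.4 against 61.7 and 46.0 (log2 fold change -0.28, SE 0.14, unadjusted p = 0.0593, adjusted p = 0.999), while its mRNA was at 92.1 and 87.0 against 88.0 and 78.1. The footprint difference rested on single libraries, at -0.05 without vehicle replicate 4, -0.16 without 1.5 μM replicate 5, -0.43 without 1.5 μM replicate 4 and -0.47 without vehicle replicate 5. In the second study edgeR called no member in ribo-seq (background 0.115% of 11263) or in mRNA-seq (background 0.0%), and none was under an unadjusted p of 0.05 (background 2.97% and 1.93%). DESeq2 called none there either (background 0.141% and 0.00827%), nor did a blocked edgeR fit (background 1.15% and 0.0%). With 0.3 μM no member was called at either time (background 0.0% at both), with 1 at an unadjusted p under 0.05 after 10 min (background 0.934%) and 0 after 60 min (background 0.871%), and none by DESeq2.

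ODC1, the enzyme that antizyme removes, was higher after 60 min than after 10 min in the compound groups. With 0.3 μM its footprints were 205, 195 and 197 CPM after 10 min and 297, 240 and 282 after 60 min, all higher as in 4.29% of 9847 transcripts (log2 fold change 0.46, SE 0.12, adjusted p = 1.00 in edgeR). Here too the replicate numbers pair the libraries, and with the block ODC1 passed the FDR (log2 fold change 0.45, SE 0.10, adjusted p = 0.0148), beside 0.957% of 11282 transcripts. Without the block no member was called in that comparison (background 0.00895%), 1 was under an unadjusted p of 0.05 (background 3.16%), and DESeq2 called none (background 0.0416%). With 1.5 μM ODC1 stood at 206, 208 and 223 CPM and then at 309, 259 and 278, also without overlap (log2 fold change 0.41, SE 0.11, adjusted p = 0.905). In vehicle it stood at 241, 185 and 262 and then at 290, 224 and 242, which overlapped (log2 fold change 0.13, SE 0.15). Whether these time courses differ from vehicle was tested for 1.5 μM, where the difference was 0.26 (SE 0.19, adjusted p = 0.856). Groups were apart for 3 of the 8 members (AZIN1, ODC1 and AMD1) over time with 1.5 μM, beside 10.3% of 9572 transcripts. None of these was called by edgeR (background 0.0182%) or DESeq2 (background 0.108%), and 4 of 8 were under an unadjusted p of 0.05 (background 4.54%). In vehicle over time, edgeR called no member (background 0.0%), with 1 under an unadjusted p of 0.05 (background 6.93%). DESeq2 adjusted the p of only 617 transcripts there (6.97% called), none of them a member. The block called no member over time in vehicle (background 0.0624%) or with 1.5 μM (background 0.018%).

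The other genes of the pathway showed no calls. Of 23 genes listed (methionine salvage, polyamine oxidation and transport, arginase, and the hypusine pathway), 18 were in the files and 17 or 18 passed the filter on low counts, and 0 passed the FDR in either direction in any of the 11 edgeR comparisons. The largest absolute changes with 1.5 μM after 10 min were those of MRI1, of methionine salvage (0.32, SE 0.15), and ATP13A2, a lysosomal polyamine exporter (0.29, SE 0.16). After 60 min they were those of ARG2, the mitochondrial arginase (-0.47, SE 0.29), and AGMAT (0.23, SE 0.14).

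Ribosomes pause at the end of most coding sequences, and the members differed in how strongly. In these maps the pause falls on the last sense codon, with the stop codon next. The ends of 5 members are shown with these codons in capitals, at chr2:10440724-10440753 (ODC1, minus strand), chr6:110893587-110893616 (AMD1), chrX:21994322-21994351 (SMS) and chrX:23785827-23785856 (SAT1), while that of SRM spans a splice junction between 11054865 and 11054970 of chromosome 1 (minus strand).
ODC1: gcctgtgcttcggctagtattaatGTGTAG
AMD1: gctaagaagcagcaacaacagcagAGTTGA
SRM: gcccgcaaggccctgaatgatgtgAGCTGA
SMS: tacactgtttggaagaaagctaaaCCCTGA
SAT1: tacttgctaaaaatggcaacagagGAGTGA
On the last sense codon, SRM held 6.84 to 31.4 times its mean density in the 18 libraries of the first study (median 12.2) and 37.2 to 50.4 times in the 4 of the second, against 1.12 to 1.97 times in mRNA-seq. This placed it at the 75.6th percentile of 7411 transcripts in the first study and the 98.7th of 8376 in the second. SMS held 4.12 to 50.9 times (median 15.8) and 21.6 to 33.3 times, and ODC1 4.81 to 13.5 times (median 10.4) and 8.57 to 17.3 times. SAT1 held 2.74 to 27.7 times (median 12.5) and 5.71 to 16.5 times. In the first and second study, SMS was at the 82.4th and 91.7th percentile, ODC1 at the 66.5th and 59.4th and SAT1 at the 67.9th and 52.1th. OAZ1 was lowest, at 0.126 to 3.66 times (median 0.988) in the first study, which was the 7.79th percentile (3.64th in the second), with much of its mean density on codons 14 to 19. In mRNA-seq the OAZ1 value was also low, at the 0.742th percentile of 9437, and that of ODC1 was at the 6.60th.

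SAT1 had another peak before the stop codon. Codon 161 (AAG), 10 codons before its last sense codon, held 3.87 to 14.7 times the mean density in the first study (mean 10.2), 1.42 to 4.53 times in the second (mean 2.41) and 0.510 to 1.20 times in mRNA-seq. The neighbouring codon 160 (GAC) stood at 3.71, 1.06 and 1.32 times on average in the same order. Both are in capitals here, within codons 157 to 166 at chrX:23785809-23785838.
SAT1, codons 157 to 166: ttcaagatcGACAAGgagtacttgctaaaa

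AMD1 had few reads on its last sense codon. In mRNA-seq 5 reads fell on that codon in all (14.9th percentile). AMD1 footprint density on this codon was at the 15.7th percentile in the first study and the 35.5th in the second. The raw reads there were 0, 0 and 1 with 1.5 μM after 10 min, 6, 3 and 3 with 0.3 μM, and 7, 35 and 2 with vehicle. The 35 reads of vehicle replicate 2, 17.6 times its mean density, stood apart from all other AMD1 libraries, the next being 8.06 times. The density was 0 to 0.879 times the mean with 1.5 μM and 1.37 to 17.6 times with vehicle, so the groups did not overlap. For limma, 0.5 reads were added on this codon before taking log2, which weighs on counts as low as 0 and 1. The limma difference of -2.56 on the log2 scale (SE 0.89, unadjusted p = 0.0173) had an adjusted p of 0.209, beside a median of -0.48 over 7866 transcripts, and was -1.53 without vehicle replicate 2. After 10 min SRM (10.1, 11.4 and 12.4 times the mean against 20.5, 31.4 and 16.9 with vehicle) and SMS (6.43, 10.2 and 15.8 against 17.3, 50.9 and 21.6) were also below all controls on this codon. With AMD1 these were 3 of 7 members tested, where 21.1% of transcripts had all treated libraries below all controls. Their limma differences were -1.03 for SRM (SE 0.54, adjusted p = 0.353) and -1.45 for SMS (SE 0.65, adjusted p = 0.294; -0.95 without vehicle replicate 2). After 60 min the AMD1 reads were 4, 1 and 1 against 4, 2 and 3, at 0.532 to 1.24 times the mean against 1.32 to 5.02 times. These densities did not overlap, but with the 0.5 reads added the groups did (limma difference -1.42, SE 0.69, adjusted p = 0.991). In the second study the AMD1 reads were 12 and 5 against 9 and 5 (limma difference -0.15, SE 0.57, adjusted p = 0.979). Limma called no member for this pre-stop density at any time (background 0.191%, 0.0% and 0.0%), with 1 of 7 members under an unadjusted p of 0.05 after 10 min (background 17.1%) and 0 in the others (background 3.42% and 5.71%). With the 0.5 reads added, SAT1 was below all controls on this codon after 60 min (as in 6.34% of 7482 transcripts), and ODC1 and SAT1 were in the second study (as in 24.2% of 8376). Along the AMD1 CDS, the codons of most reads were 239 (TAT), 66 (AGT) and 232 (GGA), at 6.78, 4.60 and 3.95 times the mean in the first study and 5.66, 2.82 and 4.43 times in the second.

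**Figure D5:**
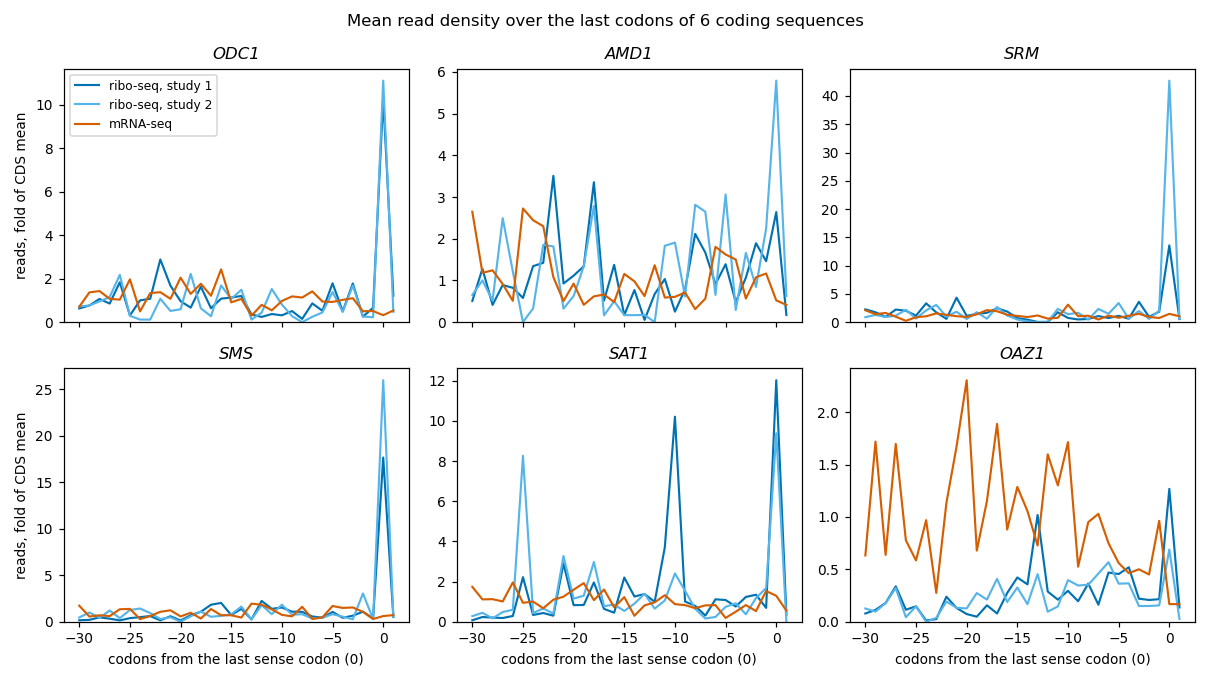
Mean reads per codon, as a multiple of the CDS mean, over the last codons of 6 members in the 18 ribo-seq libraries of the first study, the 4 of the second and the 4 mRNA-seq libraries; 0 is the last sense codon and each panel has its own linear axis. SRM peaks at 0 most strongly in the second study, and SAT1 has a further peak at -10 in the first.

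Elsewhere, values at single codons differed between the studies. The codons were picked by reads pooled over 22 ribo-seq libraries, 18 of them from the first study, which favours peaks of that study. In ODC1, codon 427 (CCC) held 14.1 times the mean in the second study and 3.08 times in the first, codon 331 (TAT) held 2.68 and 8.25 times, and codon 348 (GAG) 7.01 and 3.12 times. In SRM these were codons 123 (TGT), 65 (TTG) and 56 (AGT), at 7.86, 6.72 and 4.67 times in the first study and 4.58, 2.51 and 3.97 times in the second. In SMS codons 113 (CCC), 143 (GAA) and 76 (TAT) stood at 6.17, 5.14 and 3.78 times in the first and 2.95, 2.41 and 6.72 times in the second. In AZIN1 codons 235, 410 and 413 stood at 11.2, 8.59 and 5.58 times and then at 3.17, 4.97 and 1.42 times. In SAT1 codon 133 (AAT) stood at 4.21 and 3.66 times. In OAZ2 the codons of most reads were 44 (GAT), 45 (GTG) and 29 (TTT), but these rest on 141, 111 and 81 reads over all 22 libraries. None of these codons exceeded 1.5 times the mean in mRNA-seq on average. Spearman's correlation of an ODC1 profile between 2 libraries, over 452 codons that share the sequence and are not independent, had a median of 0.615 within the first study, 0.581 within the second, 0.402 between them and 0.136 between ribo-seq and mRNA-seq. For AMD1, with fewer reads (267 to 1386 per ribo-seq library), the medians within the first study and with mRNA-seq were 0.343 and 0.066.

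Early elongation was compared because PF-06446846 is known to act near the start of coding sequences. The 5′ density, reads per codon in the first 50 codons over those in the rest, was 0.491, 0.33 and 0.380 for SRM with 1.5 μM after 10 min and 0.217, 0.218 and 0.204 with vehicle. For SMS it was 1.26, 1.24 and 1.27 against 0.769, 0.564 and 0.802, so in these 2 of 7 members tested all treated libraries were above all controls, as in 23.4% of 7866 transcripts. OAZ1 went the other way, at 15.8, 12.8 and 10.0 against 17.1, 17.4 and 16.6, below all controls as in 2.83% of transcripts (limma difference -0.43, SE 0.25, adjusted p = 0.399, and -0.26 without 1.5 μM replicate 3). Codons 14 to 19 of OAZ1 lie within the first 50, so this value shares reads with the density across the frameshift site. The limma difference was 0.89 for SRM (SE 0.24, adjusted p = 0.179) and 0.84 for SMS (SE 0.24, adjusted p = 0.184) on the log2 scale, where the median over all transcripts tested was 0.28. With at least 200 reads required in each library, both passed the FDR (adjusted p of 0.0863 and 0.0895), beside 7.4% of 4470 transcripts. So did the center of density, the mean codon position of the reads over the CDS length, in SMS (adjusted p = 0.0414) and SRM (adjusted p = 0.0814), beside 14.5%. At the preset minimum of 50 reads, limma called no member for the 5′ density after 10 min, 60 min or in the second study (background 0.483%, 0.0401% and 0.0%), with 2, 1 and 0 of 7 members under an unadjusted p of 0.05 (background 18.1%, 4.64% and 5.01%). It called none for the center of density either (background 2.97%, 0.0802% and 0.0%), with 3, 0 and 0 of 7 under an unadjusted p of 0.05 (background 20.1%, 6.12% and 5.65%). After 60 min the 5′ density of SRM was 0.336, 0.435 and 0.367 with 1.5 μM and 0.127, 0.229 and 0.296 with vehicle, apart as in 5.67% of 7482 transcripts (difference 0.87, SE 0.37, adjusted p = 1.00, and 0.53 without vehicle replicate 1). In the second study it was 0.310 and 0.331 against 0.33 and 0.278, which overlapped (difference 0.07, SE 0.25, adjusted p = 1.00). For SMS the groups overlapped in both, with differences of 0.04 (SE 0.32) after 60 min and -0.06 (SE 0.24) in the second study. For OAZ1 it was 12.4, 7.89 and 11.9 against 17.5, 12.2 and 16.5 after 60 min, which overlapped although each same-numbered pair was lower with the compound. In the second study it was 11.6 and 13.3 against 15.1 and 15.7, lower as in 13.8% of 8376 transcripts (difference -0.31, SE 0.24, adjusted p = 1.00). AMD1 was below all controls after 60 min (as in 4.0% of transcripts) but above them in the second study, where ODC1 and SAT1 were also above (as in 18.6%).

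Dmax, the largest excess of cumulative reads with 1.5 μM over vehicle along a CDS, marks a candidate stall. Its Z-score was highest among the members for SMS after 10 min (1.63, at codon 242) and for SAT1 in the second study (1.59, at codon 100). No member reached a Z-score of 2 after 10 min, after 60 min or in the second study, where 3.56%, 2.72% and 2.27% of transcripts did. For OAZ1 the Z-score was between 0.00357 and 0.0887. Its center of density lay 0.0349 of the CDS length further 3′ with 1.5 μM than with vehicle after 10 min (limma, SE 0.0148, unadjusted p = 0.0454, adjusted p = 0.238). This value too shares reads with the density across the frameshift site.

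Over the 18 ribo-seq libraries of the first study, the transcripts most like a member in log2 CPM were named among 6706 with at least 200 reads on average. For AMD1 these were PPP2R5E, SLC35D2 and OGFOD1 (Pearson's r of 0.904, 0.851 and 0.826). For ODC1 they were ARPC1A, SLC25A46 and MYBL2 (0.879, 0.846 and 0.823), and for OAZ1 TSFM, MRPL41 and PTTG1IP (0.835, 0.833 and 0.830). Among the members, AZIN1 and SAT1 were most alike (0.804) and OAZ1 and SRM least (-0.461). These libraries share groups and preparation, and the values are descriptions of them.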

How the data were processed

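Ribo-seq (22 libraries) and mRNA-seq (4) of Huh7 cells were analysed. The authors stripped adapters, discarded ribosomal RNA reads and mapped what was left to 1 isoform of each expressed gene, kept reads with up to 5 best sites and assigned reads to codons by an inferred P-site, so near-identical sequences can share reads. The submitters' processing notes name Bowtie 1.1.2, kallisto 0.42.5, DESeq and GRCh38. The deposited values are raw counts of reads per codon. A table of the authors' fold changes and p-values was not used. CDS sums were 6414227 to 22224137 reads per ribo-seq library and 15227654 to 22036358 per mRNA-seq library. Members had a median of 83 (OAZ2) to 2464 (ODC1) footprints per library.

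Groups followed the labels. Counts per CDS were tested with edgeR 4.0.16 (filterByExpr, TMM, quasi-likelihood, R 4.3.3) at an FDR of 0.1 over all transcripts, and TE as an interaction of assay and treatment. Position measures were tested with limma 3.58.1 (densities as log2 values, center as a share of CDS length) in CDSs of at least 150 codons with at least 50 reads per library, which leaves out OAZ2. Single ratios used two-sided exact permutation tests. DESeq2 1.42.0 and other settings were alternatives. Dmax used pooled replicates, at least 10 reads per group and bins of 300 transcripts, its Z-score being Dmax over the root mean square of the bin. The edgeR, DESeq2 and limma fits without a block or an interaction were tested on simulated data. The planted changes were large, so power for smaller changes was not measured. Sequences are from GRCh38 with GENCODE CDS models, whose lengths equal those of the files for all 8 members.

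Same-numbered libraries deviated together (r over 0.1 in every pair) for 1.5 μM and vehicle after 60 min (0.409 to 0.530), 0.3 μM and vehicle at both times (0.155 to 0.544 and 0.434 to 0.560) and 0.3 μM across times (0.368 to 0.444), so the number pairs these libraries. The ribo-seq libraries of the second study, with 2 replicates per group, had an r of 0.296 in both pairs. This is over that limit, but they were not counted as paired. No 2 replicates agreed within sampling noise (chi-square per transcript 4.45 to 51.9). The authors describe the first study as done in biological replicates. The labels name no separate cultures, so p-values measure the spread between these libraries.

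Members, gene lists and tests were chosen with earlier results of these data known. Genes named were the 8 members, other pathway genes past the FDR or otherwise the 2 of largest absolute change, and the 3 transcripts most like OAZ1, ODC1 and AMD1. Codons named were the 3 with most reads, 5 codons from either end left out, and the last sense codon. Codons 14 to 19, 58 and 59 of OAZ1 were singled out after the values were seen.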

Additional observations from a re-analysis of the deposited data

How the results depend on the processing

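The number of members called was 0 in all 20 comparisons across transcripts. For 1.5 μM against vehicle after 10 min, DESeq2 called 2 (AMD1, AZIN1; 519 transcripts in all against 94), codons after 50 gave 1 (AMD1; 195 in all), the replicate block 3 (AZIN1, AMD1, SRM; 1165 in all), and leaving out 1 library 0 to 2 (AMD1 and SRM without vehicle replicate 3; 1656 in all). The block there rests on correlations of 0.0613 to 0.240 between same-numbered libraries, which do not meet the pairing rule, although 3 of 3 pairs correlated best with their own number. The replicate block gave 1 member (AMD1) for 1.5 μM after 60 min (51 calls in all against 8) and 1 (ODC1) for 0.3 μM over time (108 against 1), and changed no other call among members, while all calls went from 13 to 129 in the second study. For the center of density after 10 min a minimum of 200 reads gave 2 (SRM, SMS; 649 in all against 234) and leaving out 1 library 0 to 1 (SMS, without vehicle replicate 3; 270 in all), and for the 5′ density that minimum gave 2 (331 in all against 38). The cause was not tested. DESeq2 gave no member an adjusted p in vehicle over time, so no count was had there. The other 272 of 281 settings kept the result, but some of them could not have changed it. The OAZ1 permutation tests have too few libraries for a p under 0.05, and a stricter FDR cannot add a call to 0. Whether the OAZ1 groups overlapped did depend on the setting. After 10 min they were apart, but not without codons 14 to 19. After 60 min they overlapped, but not without 1.5 μM replicate 1 or without vehicle replicate 2. In the second study they were apart, but not by the median of reads per codon. Of 213 values for 15 named differences, 0 turned direction (AMD1 after 60 min 0.42 to 0.68, after 10 min -0.56 to -0.39, AZIN1 in the second study -0.47 to -0.05). With same-numbered libraries paired, the OAZ1 log2 difference between ribo-seq and mRNA-seq stayed at -4.51 (exact permutation p = 0.5), and leaving out 1 library gave -4.60 to -4.43. Density across the OAZ2 site could not be computed, because the counted CDS begins after it. Depth limits AMD1 and OAZ2 at single codons.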

Other observations

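SRM footprints were sparse near the start of the CDS. Its reads per codon in the first 50 codons were 0.266 times those in the rest in the first study and 0.314 times in the second (log means over libraries), with 11.5% and 5.53% of transcripts lower, against 0.783 times in mRNA-seq. Chosen after its values were seen, codon 146 of SAT1 averaged 8.27 times the CDS mean in ribo-seq of the second study, 2.22 times in the first and 0.943 times in mRNA-seq.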
